A study of Mus musculus with 1016 samples.

Results

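The regions described here were 3621 bins of 50 kb that were late-replicating in natural zygotes and early-replicating in parthenotes, among 46436 bins with a value in both (7.8%) and 49264 bins in the deposited tables. They covered 181 Mb of chromosomes 1 to 19. Single mouse cells or pronuclei were sequenced during S phase by scRepli-seq, which reads the copy number of each bin, and each bin of each cell was scored as replicated or not. For every bin, the share of cells with that bin replicated was computed over cells in which 10 to 90% of the genome was replicated (the replication score), and bins were ranked by that share from 0 (latest) to 1 (earliest). A bin was a member where its rank was 0.4 or less in odd-numbered zygotes (n = 31) and 0.6 or more in odd-numbered parthenotes (n = 33). In these cells, which chose the members and are no finding, the median share over members was 0.606 in parthenotes and 0.452 in zygotes, against 0.516 and 0.548 over all bins. At the zygote limit, the last rank inside was 0.381 (share 0.484) and the first outside was 0.456 (share 0.516). At the parthenote limit, the rank just inside was 0.607 (share 0.563) and the rank just outside was 0.597 (share 0.548). All other values below come from the even-numbered cells of these groups and from all cells of the other groups.

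The parthenotes (24 even-numbered cells) were (C57BL/6J x CBA)F1 oocytes activated with Sr2+ without sperm and collected 5.5 to 12 h after activation. The IVF zygotes (57 cells, from 5.5 h after insemination) and the natural zygotes (35 even-numbered cells, 20 to 26 h after hCG) both had (C57BL/6J x CBA) mothers and DBA/2J fathers. Maternal pronuclei (21, labelled (C57BL/6J x CBA)F1) and paternal pronuclei (17, labelled DBA/2J) were taken between 21 and 25 h after hCG, and per the methods both pronuclei of a zygote were processed, so that the groups can share zygotes. The methods state that pronuclei whose allele counts went against their label were exchanged, which was not tested here. The later embryos were of the zygotes' cross. Single cells came from 2-cell (63 cells), 4-cell (55), 8-cell (56), 16-cell (40) and morula (47) stages and the inner cell mass (ICM, 70). Treated 2-cell embryos had received α-amanitin (42 cells), DRB (67) or Kdm5b mRNA (56). Several of these cells can come from 1 embryo, and the labels do not say which. Untreated 2-cell embryos were collected 32 to 40 h after hCG. Those with α-amanitin were collected at 34 to 39 h, and those with DRB or Kdm5b mRNA at 34 to 40 h. The clocks of parthenotes and IVF zygotes differ from that of natural zygotes, and strain and parental origin cannot be told apart in the pronuclei. The labels tie no cell to an animal or collection, so each group counted as 1 sample, no p-value is given, and the exact binomial 95% intervals below cover the counting of cells only. The replication score had a median of 57.8% in parthenotes, 62.4% in IVF zygotes and 57.7% in natural zygotes, 54.9% in maternal and 63.1% in paternal pronuclei, 51.3% with α-amanitin, 58.7% with DRB, 55.6% with Kdm5b mRNA and 50.2% in untreated 2-cell embryos, so that raw differences in share also carry differences in score between the groups. Each member had a call in at least 22 parthenotes and in all 35 zygotes. Every natural zygote had a call at the same number of bins, 46523, whereas in each other group the number varied between cells, and whether bins were masked in another way in natural zygotes was not tested.

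Replication timing (RT) is the order in which stretches of the genome are copied in S phase. In most cells, early replication goes with open, gene-rich and GC-rich chromatin and late replication with AT-rich chromatin at the nuclear lamina. A zygote holds a maternal and a paternal genome in separate pronuclei, which differ in their histones and DNA methylation. The parthenotes, as the paper describes them, held a single copy of the maternal genome and no paternal genome. Parental origin and the number of genome copies thus cannot be told apart between parthenotes and zygotes.

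The longest runs of adjacent members, with breaks of 1 bin bridged, are shown first by their sequence, because the differences described below varied with base composition. Both had 36 bins. One lay over Lrp1b on chromosome 2, and the other spanned genes such as Kmt2e, Srpk2 and Prkag2 on chromosome 5. The 300 bases at the centre of each (GRCm38, + strand, chr2:41449851-41450150 in an intron of Lrp1b and chr5:24249851-24250150 outside any protein-coding gene) and the 250 bases before the RefSeq starts of the 4 class 3 semaphorin genes of chromosome 5 (GRCm38.p6, all + strand, chr5:12382916-12383165, chr5:13396534-13396783, chr5:14025026-14025275 and chr5:17574566-17574815) are printed 5′ to 3′, with CG dinucleotides in capitals.
Lrp1b run centre: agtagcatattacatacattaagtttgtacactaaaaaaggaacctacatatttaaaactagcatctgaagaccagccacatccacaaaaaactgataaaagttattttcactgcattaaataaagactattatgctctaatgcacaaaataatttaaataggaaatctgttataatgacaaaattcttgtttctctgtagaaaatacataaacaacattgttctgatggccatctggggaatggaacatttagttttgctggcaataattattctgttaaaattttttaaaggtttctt
Kmt2e run centre: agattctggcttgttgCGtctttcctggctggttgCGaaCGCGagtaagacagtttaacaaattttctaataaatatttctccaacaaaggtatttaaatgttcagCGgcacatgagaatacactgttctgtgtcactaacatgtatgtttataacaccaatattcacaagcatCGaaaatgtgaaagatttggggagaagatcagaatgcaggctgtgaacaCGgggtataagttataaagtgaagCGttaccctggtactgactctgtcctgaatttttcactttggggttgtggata
Sema3d: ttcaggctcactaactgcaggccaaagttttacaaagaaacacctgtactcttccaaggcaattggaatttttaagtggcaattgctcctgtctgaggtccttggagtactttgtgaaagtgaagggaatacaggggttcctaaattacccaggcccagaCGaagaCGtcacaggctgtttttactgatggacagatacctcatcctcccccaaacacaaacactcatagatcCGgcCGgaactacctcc
Sema3a: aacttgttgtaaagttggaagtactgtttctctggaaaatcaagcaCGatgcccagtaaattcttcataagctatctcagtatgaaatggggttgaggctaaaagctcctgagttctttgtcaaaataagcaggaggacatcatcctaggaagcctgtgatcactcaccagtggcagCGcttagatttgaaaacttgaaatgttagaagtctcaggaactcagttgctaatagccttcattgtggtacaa
Sema3e: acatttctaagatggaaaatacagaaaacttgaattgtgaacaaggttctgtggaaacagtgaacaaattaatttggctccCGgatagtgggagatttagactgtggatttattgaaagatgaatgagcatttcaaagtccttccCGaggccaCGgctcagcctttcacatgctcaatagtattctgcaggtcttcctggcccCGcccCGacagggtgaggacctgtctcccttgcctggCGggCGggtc
Sema3c: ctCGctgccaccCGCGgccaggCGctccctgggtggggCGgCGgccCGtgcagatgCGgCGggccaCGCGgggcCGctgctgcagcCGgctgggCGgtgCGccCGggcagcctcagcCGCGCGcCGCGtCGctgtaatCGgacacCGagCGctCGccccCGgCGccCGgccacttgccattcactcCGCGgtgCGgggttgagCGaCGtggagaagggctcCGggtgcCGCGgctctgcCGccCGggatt
The Lrp1b stretch held 0 CG in 300 bases at 28.3% GC, and the chromosome 5 stretch held 8 at 39.3% GC. Among the semaphorin promoters, that of Sema3c held 39 CG in 250 bases, whereas those of Sema3e, Sema3d and Sema3a held 7, 4 and 2. A single RefSeq start was taken for each gene. In the GENCODE annotation, Sema3a starts at chr5:13125414 and Sema3c at chr5:17574281, both upstream of the stretches printed.

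Parthenotes were compared with natural zygotes in the even-numbered cells, which the rule had not used. The members were replicated in a median of 62.5% of parthenotes and 51.4% of zygotes, against 62.5% and 60% over all bins. The members thus sat at the genome median in parthenotes and below it in zygotes. The parthenote minus zygote difference had a median of 12.1 percentage points over members (25th to 75th percentile 0.87 to 22.5) and 2.11 over all bins, and it was above 0 at 2752 members (76%) and at 54.9% of all bins. Over the 12329 bins late in both odd-numbered zygotes and odd-numbered parthenotes, it was 6.67 points, and above 0 at 66.1%. Part of the difference was thus shared by zygote-late bins that were not early in parthenotes. The rank was higher in parthenotes by 0.2 or more at 1769 members (48.9%, against 23.4% of all bins) and lower by 0.2 or more at 411 (11.4%, against 23.9%). Both rank limits were met again at 938 members (25.9%), against 8.45% of all bins and 3.61% of the 3911 bins that were early in odd-numbered zygotes and late in odd-numbered parthenotes. In the even-numbered cells, ranks of 0.6 or more (early) were held by 48.3% of members in parthenotes (39.9% of all bins) and 21.18% in zygotes (40.4%), and ranks of 0.4 or less (late) by 25% in parthenotes (38.4%) and 60.8% in zygotes (41.1%). The opposite limits were met at 116 members (3.2%, against 7.1% of all bins). The difference was 5 points in cells with a replication score of 30 to 70% and 3.93 points relative to all bins of the same GC content. The odd-numbered and even-numbered cells were not fully separate, because the authors scaled each bin by its mean over all cells of a stage.

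**Figure D1:**
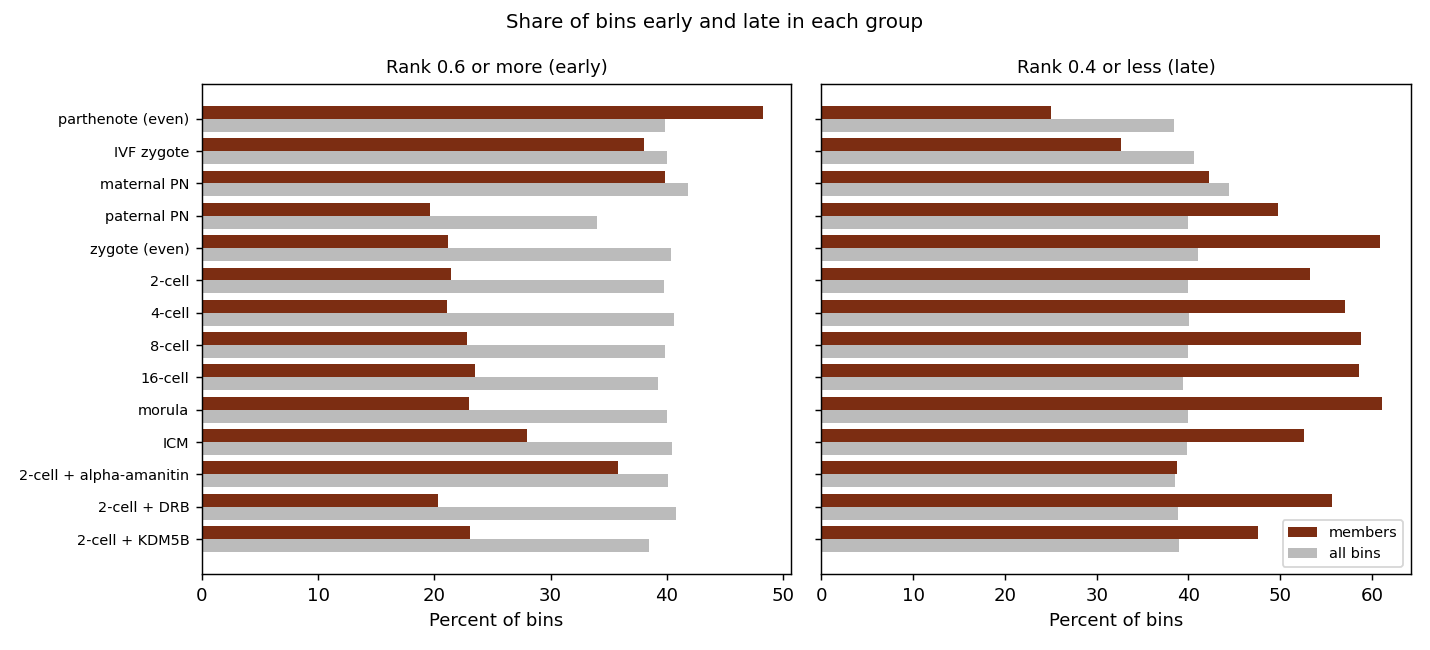
Percent of bins with a percentile rank of 0.6 or more (left, early) and of 0.4 or less (right, late) in each group, for the members (brown) and all bins (grey); parthenotes and natural zygotes are even-numbered cells only. Members were early at a share close to that of all bins in maternal pronuclei (39.8% and 41.8%) and less often in paternal pronuclei (19.6% and 34%).

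Seen cell by cell, the members were ahead of the cell's replication score in most parthenotes and behind it in most zygotes. The score averages all bins of a cell, so being ahead of it does not mean being earlier than the median bin. In parthenotes the median share of members equalled that of all bins, at 62.5%. The percentage of members replicated in a cell, minus that cell's replication score, was -17.4, 4.19 and 14.4 points at the lowest, median and highest parthenote, and -19.2, -4.07 and 8.39 points in zygotes. It was above 0 in 19 of 24 parthenotes and in 11 of 35 zygotes. The groups overlapped over most of their range, with 8 of 24 parthenotes above the highest zygote and 20 above the median zygote. In cells with a replication score under 50%, the medians were 5.42 points in 7 parthenotes and -1.30 in 10 zygotes, and in cells at 50% or more they were 2.96 in 17 parthenotes and -5.41 in 25 zygotes. Each collection hour held 1 to 4 parthenotes and 1 to 8 zygotes, and the parthenote collected at 11 h was the lowest of its group.

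**Figure D2:**
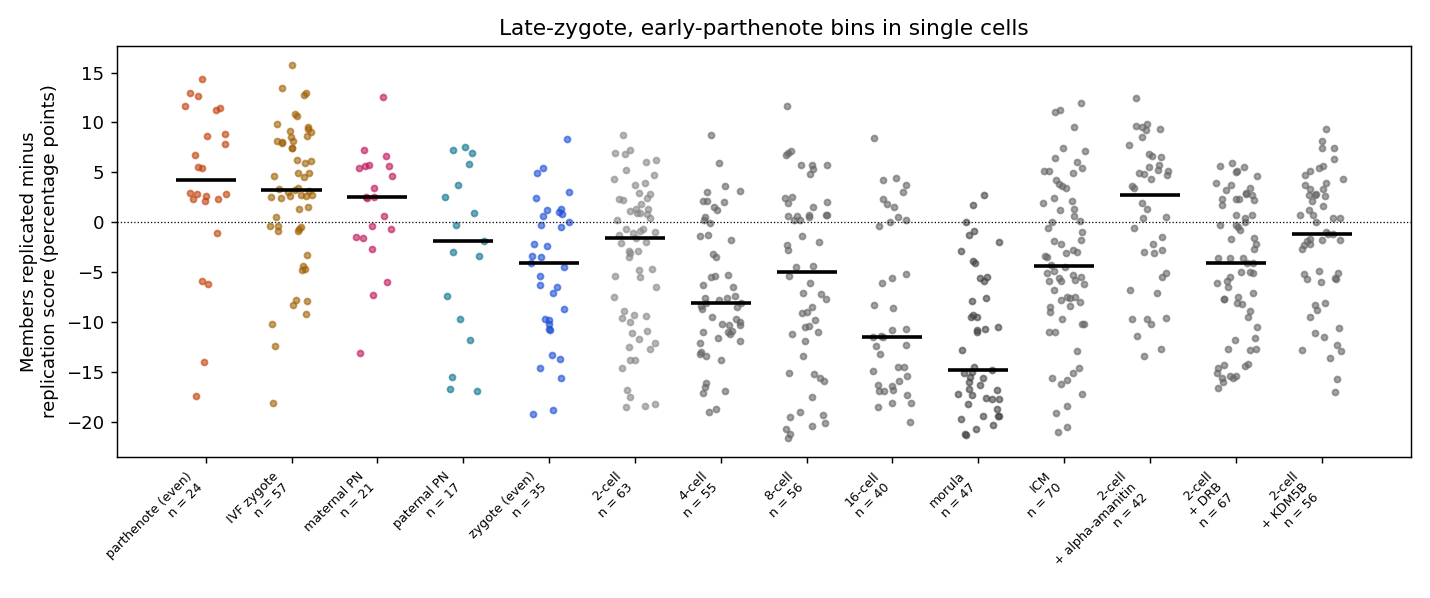
Each point is 1 cell or pronucleus: the percentage of members replicated minus the cell's replication score, in percentage points, with the group median as a bar. The medians were 4.19 in parthenotes and -4.07 in natural zygotes, and lowest in morulae at -14.8.

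IVF zygotes hold both parental genomes, as natural zygotes do, but were fertilised in vitro. Their members were replicated in a median of 64.9% of cells, which was also the median of all bins, and the IVF minus natural zygote difference had a median of 12.8 points over members (2.26 to 21.9) and 4.21 over all bins. Over the bins late in both odd-numbered zygotes and odd-numbered parthenotes, it was 5.71 points. Early ranks were held by 38.1% of members in IVF zygotes (40% of all bins) and late ranks by 32.6% (40.6%). The rank was higher in IVF zygotes by 0.2 or more at 1435 members (39.6%, against 19.9% of all bins) and lower by as much at 399 (11%, against 20.1%). Between parthenotes and IVF zygotes, the median difference was -0.534 points over members (-7.89 to 6.58) and -1.71 over all bins, with a higher rank by 0.2 or more in parthenotes at 27.9% of members (18.8% of all bins) and a lower one at 15.4% (18.5%). The sign of that median changed between settings, and the IVF minus natural zygote difference was 8.52 points with the interval mean (the share averaged over windows of the replication score) and 2.53 points relative to all bins of the same GC content. The members were behind the replication score in 17 of 57 IVF zygotes and in 24 of 35 natural zygotes. The methods mention IVF-derived embryos that had developed without sperm and were left out by genotype. Whether any remained among the 57 IVF cells was not tested, since the tables hold no alleles.

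The pronuclei separate the 2 parental genomes of natural zygotes. In maternal pronuclei the members were replicated in a median of 61.9%, equal to the median of all bins, and in paternal pronuclei in 56.3%, against 58.8% of all bins. The bins early in odd-numbered zygotes and late in odd-numbered parthenotes had the same maternal median, and a paternal median of 64.7%. In maternal pronuclei, 35.7% of those bins held early ranks and 44.6% late ranks, so that the maternal values hardly set members apart from them. The maternal minus paternal difference was 5.6 points over members (-3.92 to 16.2) and 1.68 over all bins. Over the bins late in both odd-numbered zygotes and odd-numbered parthenotes, it was 2.8 points. Early ranks were held by 39.8% of members in maternal (41.8% of all bins) and 19.6% in paternal pronuclei (34%), and late ranks by 42.2% (44.4%) and 49.7% (39.9%). The difference was above 0 at 65% of members and 53.5% of all bins. The rank was higher in maternal pronuclei by 0.2 or more at 1215 members (33.6%, against 20.8%) and lower at 666 (18.4%, against 22.5%). Rank 0.6 or more in maternal with 0.4 or less in paternal pronuclei was met at 606 members (16.7%, against 7.53% of all bins). Relative to the score, the members stood at a median of 2.51 points in maternal pronuclei (-13.1 to 12.5, above 0 in 13 of 21) and at -1.93 in paternal pronuclei (-17 to 7.56, above 0 in 7 of 17). The groups overlapped, with 1 of 21 maternal pronuclei above the highest paternal one. The parthenote minus maternal pronucleus difference was 1.19 points over members and -0.595 over all bins, and the parthenote minus paternal pronucleus difference was 8.33 and 1.23 points. The maternal minus paternal difference was 1.71 points in pronuclei with a score of 30 to 70% and 1.44 relative to all bins of the same GC content.

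The differences varied with base composition. The members had a median GC content of 38.8%, against 41.4% of all bins, 39.5% of the 12329 bins late in both groups and 43.8% of the bins with the reverse pattern. They held 5.86 CG per kb (all bins 7.8), 34.7% repeat-masked sequence (30.9%) and 5.18 protein-coding gene starts per Mb (8.59), and 51.9% of them touched no protein-coding gene (41.7% of all bins). They lay nearer to the centromeric chromosome start, at a median of 47 Mb from it against 67.3 Mb. Gene promoters within members did not share the low GC content. The 250 bases before the start of 1409 RefSeq promoters in members had a median of 52.4% GC, against 52.8% for 30185 promoters in all bins, and 39.2% held 10 or more CG, against 39.5%.

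When the members were split by GC content into 4 sets of 905 bins (1 member had no GC value), the lowest set (32.9 to 37.3% GC) was replicated in a median of 62.5% of parthenotes and 40% of zygotes, and in 61.9% of maternal and 47.1% of paternal pronuclei. In the highest set (41.6 to 55% GC), the medians were 62.5% of parthenotes and 65.7% of zygotes, and 61.9% of maternal and 64.7% of paternal pronuclei. The maternal median was 61.9% in all 4 sets and the parthenote median between 62.5% and 66.7%, whereas the zygote and paternal medians were higher in each set of higher GC content. All bins of those ranges had a like pattern. From the lowest to the highest range, their medians went from 57.1% to 61.9% in maternal pronuclei and from 56.5% to 62.5% in parthenotes. They went from 37.1% to 65.7% in zygotes and from 41.2% to 64.7% in paternal pronuclei. The parthenote minus zygote difference was 22.3, 16.8, 9.32 and -1.9 points from the lowest to the highest set, and that of all bins in the same GC ranges was 18.6, 12.2, 2.98 and -4.29 points. The maternal minus paternal difference was 14.8, 8.96, 3.08 and -0.56 points over members and 11.2, 6.44, 1.79 and -1.68 over all bins of those ranges. Both rank limits were met again at 42.1% of the lowest and 8.18% of the highest set, against 21.7% and 2.52% of all bins there. The differences thus varied with GC content in the members and over all bins alike, and relative to all bins of the same GC content they were 3.93 points between parthenotes and zygotes, 2.53 points between IVF and natural zygotes and 1.44 points between the pronuclei.

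**Figure D3:**
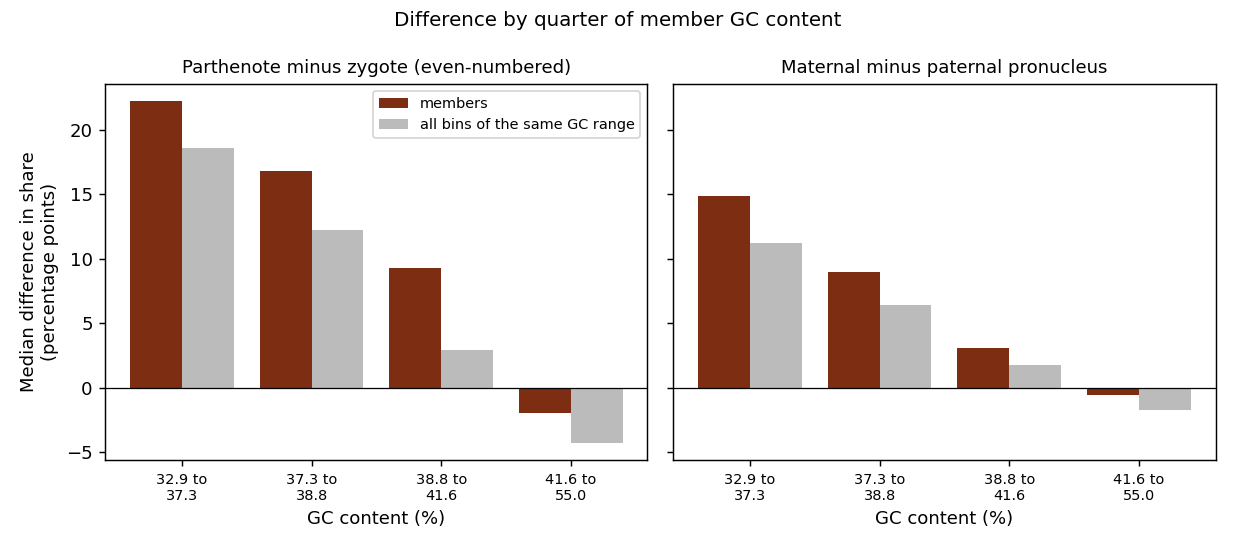
Median difference in the share of cells replicated, in percentage points, for members (brown) and all bins (grey) in 4 ranges of GC content, for parthenote minus zygote in even-numbered cells (left) and maternal minus paternal pronucleus (right). For members, both were below 0 in the range of highest GC content (-1.9 and -0.56 points), and both were highest below 37.3% GC, at 22.3 and 14.8 points for members.

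The members formed 601 runs, of which 125 were single bins and 267 had at least 5 bins and held 2904 members. The median run had 4 bins. Among the 267 longer runs, the mean share was higher in parthenotes than in zygotes at 209, with differences between -23.5 and 45.5 points, and higher in maternal than in paternal pronuclei at 178, with differences between -33.9 and 46.3 points. Around their centres, the mean rank was 0.572 in parthenotes and 0.394 in zygotes, and 2 Mb upstream it was 0.518 and 0.441. The flanks of the runs were thus earlier in parthenotes as well, by a smaller amount.

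**Figure D4:**
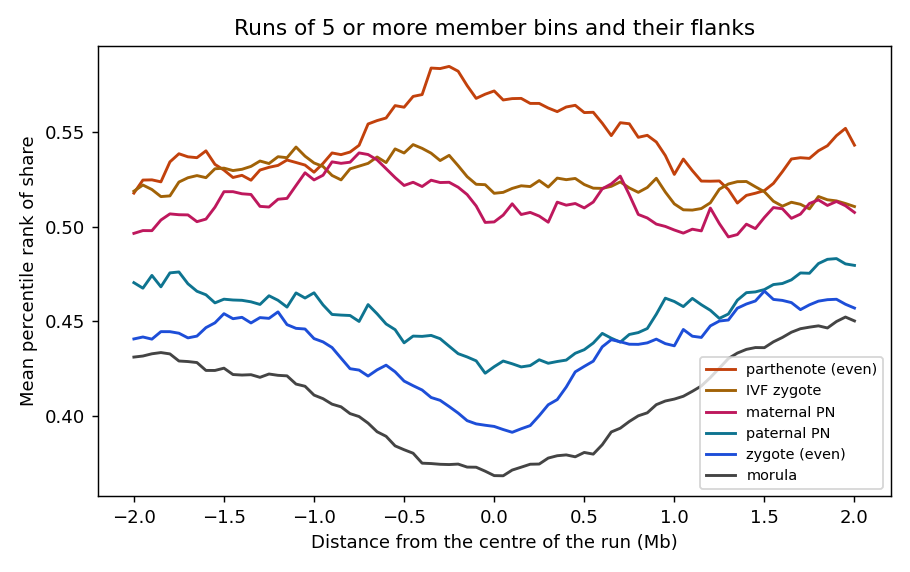
Mean percentile rank of the share of cells replicated, by distance in Mb from the centre of the 267 runs of at least 5 members. At the centre, parthenotes stood at 0.572, IVF zygotes at 0.518, maternal pronuclei at 0.503, paternal pronuclei at 0.426, natural zygotes at 0.394 and morulae at 0.368.

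The run over Lrp1b, a gene for a large receptor of the LDL receptor family, spanned chr2:40550001-42350000 and covered 36 of the gene's 43 bins. Most of it was replicated in 18 of 23 parthenotes (78.3%, interval 56.3 to 92.5) and in 17 of 35 zygotes (48.6%, 31.4 to 66). Over the whole gene, the mean share was 66.7% in maternal and 50.3% in paternal pronuclei. Most of the run was replicated in 11 of 20 maternal and 9 of 17 paternal pronuclei. The counts were 38 of 57 IVF zygotes and 20 of 63 cells of 2-cell embryos. In morulae it was replicated in 4 of 47 cells (8.51%, 2.37 to 20.4), at a mean rank of 0.0694. The equally long Kmt2e run (chr5:23350001-25150000, 29 protein-coding genes, 46% GC) was replicated in 14 of 24 parthenotes (58.3%, 36.6 to 77.9) and 17 of 35 zygotes (48.6%, 31.4 to 66). These groups were thus close together in the even-numbered cells. In morulae this run was replicated in 37 of 47 cells (78.7%, 64.3 to 89.3). Kmt2e is a member of the trithorax family, Srpk2 a kinase of splicing factors and Prkag2 a subunit of the energy sensor AMPK.

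Chromosome 5 held 499 members (17.5% of its bins), more than any other chromosome, and chromosome 2 had the lowest share (2.49%). The stretch from Sema3d to Sema3c (chr5:12383385-17730268, 21 protein-coding genes), singled out after its values were seen, held 80 members among 92 bins with a value (87%), in 5 runs. Class 3 semaphorins are secreted guidance cues for axons and vessels, and the stretch also carries Pclo, a scaffold of the presynaptic active zone, and Hgf, the ligand of the Met receptor. Most of its member bins were replicated in 17 of 24 parthenotes (70.8%, 48.9 to 87.4) and in 15 of 35 zygotes (42.9%, 26.3 to 60.6). The counts were 38 of 57 IVF zygotes, 13 of 21 maternal and 9 of 17 paternal pronuclei. At the 4-cell stage, 8 of 55 cells had most of them replicated (14.5%, 6.5 to 26.7). Over whole genes, Sema3d was replicated in 77.5% of parthenotes and 47.4% of zygotes on average, Sema3a in 68.9% and 39.7%, Sema3e in 56.9% and 41.9%, Sema3c in 64.6% and 38.6%, and Pclo in 65.6% and 44.6%. Hgf was replicated in 75% of parthenotes, 30% of zygotes and 58.8% of IVF zygotes. All 6 genes had a higher mean in parthenotes than in zygotes, but only 1 of the 4 bins of Sema3c was a member. In maternal and paternal pronuclei, the shares were 76.2% and 52.9% at Hgf, 66.1% and 35.3% at Pclo and 61.9% and 40.1% at Sema3a. The gaps were smaller at Sema3e (60.3% and 51%), Sema3c (69% and 64.7%) and Sema3d (55.2% and 51.8%).

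**Figure D5:**
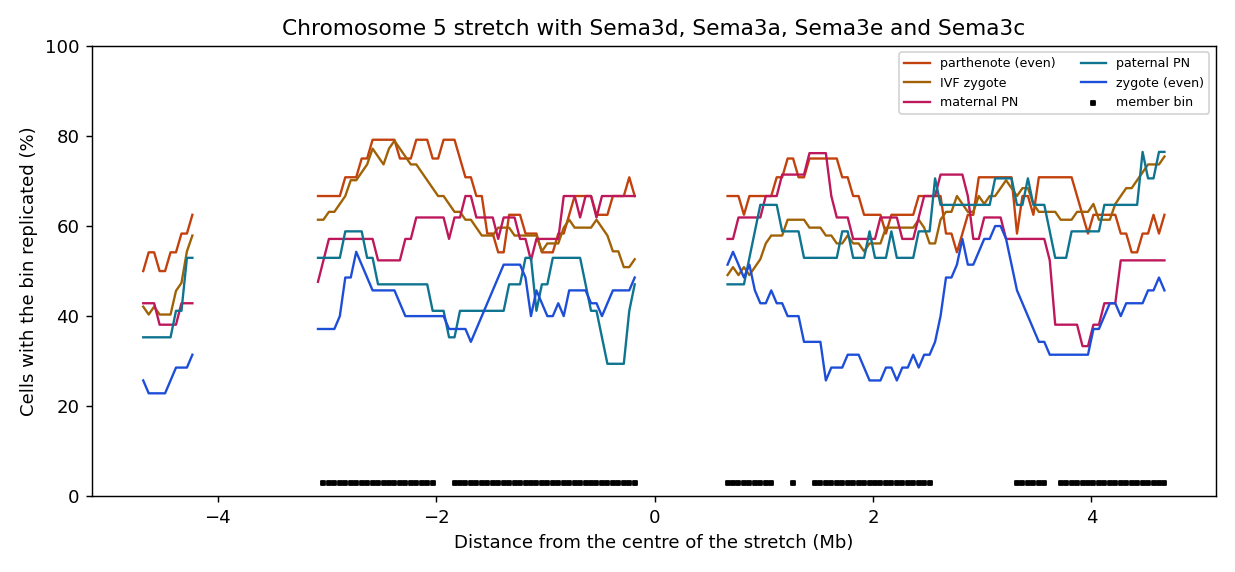
Percentage of cells with each 50 kb bin replicated along the chromosome 5 stretch from Sema3d to Sema3c and 2 Mb on either side, by distance in Mb from its centre, with member bins as black squares and gaps where bins had no value. The parthenote line lies above the zygote line at most member bins, with means over the 80 members of the stretch of 67.2% in parthenotes and 40.2% in zygotes.

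The other runs named for their length differed in the same direction, by 11.5 to 29.9 points as means over their bins, but single genes in them did not all follow. Among them were runs at Cdk14 and Steap2 on chromosome 5, at Sema3a, Pclo and Sema3e, and at Golim4 and Fstl5 on chromosome 3. Further ones lay at the retinaldehyde dehydrogenase gene Aldh1a1 and Tmc1 on chromosome 19. Runs also lay at Cul3, which encodes a ubiquitin ligase scaffold, and Dock10 on chromosome 1. The remaining ones were in stretches of chromosomes 11 and 18 without a protein-coding gene, called gene-free here and below. Over whole genes, Dock10 was replicated in 73.6% of parthenotes and 53.3% of zygotes, Cul3 in 72.9% and 60%, and Fstl5 in 51.5% and 38.4%. Aldh1a1 was replicated in 67.7% of parthenotes and 63.6% of zygotes, Tmc1 in 69.2% and 67.4% and Golim4 in 51.4% and 50.5%, and Cdk14 had the higher share in zygotes (69.2% of parthenotes and 74.7% of zygotes). The gene-free run at chr11:37750001-39300000 was replicated in 14 of 24 parthenotes and 12 of 35 zygotes, in 16 of 21 maternal and 8 of 17 paternal pronuclei, and in 4 of 47 morula cells. The Fstl5 run (chr3:75700001-77300000) was replicated in 14 of 24 parthenotes and 15 of 35 zygotes, and in 14 of 21 maternal and 5 of 17 paternal pronuclei. In both, the maternal level was above the paternal one.

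The 5 runs with the largest parthenote minus zygote difference, chosen on that difference and given as a description, were at 36.3 to 41.9% GC. A gene-free run at chr7:61700001-62100000 was replicated in 16 of 24 parthenotes (66.7%, 44.7 to 84.4), 7 of 35 zygotes (20%, 8.44 to 36.9) and 0 of 47 morula cells. That count of 0 allows a share of up to 6.38% when it is taken to allow 3 cells (exact interval 0 to 7.55%). The run inside the type II cadherin gene Cdh12 (chr15:20700001-21250000) was replicated in 17 of 23 parthenotes (73.9%, 51.6 to 89.8) and 10 of 35 zygotes (28.6%, 14.6 to 46.3), in 41 of 57 IVF zygotes, and in 16 of 21 maternal (76.2%, 52.8 to 91.8) and 5 of 17 paternal pronuclei (29.4%, 10.3 to 56). At Cdh12, parthenotes, IVF zygotes and maternal pronuclei were thus high, and natural zygotes and paternal pronuclei low. At Zfp804b (chr5:6600001-7500000), the counts were 18 of 24 parthenotes (75%, 53.3 to 90.2) and 8 of 35 zygotes (22.9%, 10.4 to 40.1), with 26 of 57 IVF zygotes between them. A gene-free run at chr12:42200001-42600000 was replicated in 17 of 24 parthenotes and 10 of 35 zygotes. At the chromosome 5 run with Spp1, Ibsp, Dmp1 and Mepe, genes for bone and tooth matrix proteins, the counts were 18 of 24 parthenotes and 15 of 35 zygotes, and the paternal pronuclei were the higher ones (10 of 21 maternal and 13 of 17 paternal).

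The 5 runs at the other end had a higher share in zygotes than in parthenotes, against the direction in the odd-numbered cells, and 4 of them were at 43.6 to 51.7% GC. The run with the kidney and pancreas glycoprotein genes Umod and Gp2 (chr7:119050001-119550000) was replicated in 8 of 24 parthenotes (33.3%, 15.6 to 55.3) and 20 of 35 zygotes (57.1%, 39.4 to 73.7). The others lay at Otof and Hadha on chromosome 5, at Lrba on chromosome 3, at Adnp2 and Ctdp1 on chromosome 18 and at Map3k11 and Ltbp3 on chromosome 19. By pronuclei, the largest maternal minus paternal difference was at Ccser1 (chr6:61600001-62950000), replicated in 16 of 21 maternal (76.2%, 52.8 to 91.8) and 4 of 17 paternal pronuclei (23.5%, 6.81 to 49.9), followed by a gene-free run on chromosome 9 and by Cadm2, a synaptic adhesion gene. The largest difference the other way was at Gpat3, a gene of triglyceride synthesis, with 8 of 21 maternal and 13 of 17 paternal pronuclei, followed by Rp1, a gene of photoreceptor microtubules (8 and 11), and Hnrnpd, which encodes an RNA-binding protein (7 and 11). These runs were chosen on the same pronuclei, so their values are a description.

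Of 19946 protein-coding genes whose midpoint bin had a value, 919 (4.61%) lay in members. Among lists of genes active in the embryo, the counts were 0 of 33 maternally and 0 of 35 paternally expressed imprinted genes, 1 of 26 genes of zygotic genome activation, 2 of 36 oocyte genes, 1 of 25 pluripotency genes, 0 of 20 trophectoderm genes, 0 of 21 primitive endoderm genes and 1 of 37 replication factors. Long neuronal genes were in members at 8 of 41 (19.5%), among them Lrp1b and Cdh12, which were named by the runs, and Csmd3, Dlg2 and Magi2, which were singled out after their values were seen. Csmd3 was replicated in 71.1% of parthenotes and 34.3% of zygotes, and in 75.8% of maternal and 45.6% of paternal pronuclei. Dlg2, for a postsynaptic scaffold, was replicated in 73% of parthenotes and 50.1% of zygotes, and in 74.2% of maternal and 63.3% of paternal pronuclei. Magi2, for a scaffold of cell junctions and synapses, was replicated in 63.4% of parthenotes and 52.6% of zygotes, but in 55.1% of maternal and 73.8% of paternal pronuclei, the other way round. The clustered protocadherins were in members at 23 of 56 genes, but in only 5 bins of chromosome 18, and the 11 histone genes among 67 lay in 2 bins. The 23 olfactory receptor genes in members were 2.04% of 1126. Neither the housekeeping nor the ribosome biogenesis list (31 genes each) had a member, and so it was with the Hox (39 genes) and vomeronasal receptor (213) lists.

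The 5 genes of these embryo and replication lists that lay in members went both ways in the even-numbered cells. Orc5, a subunit of the origin recognition complex, was replicated in 70.8% of parthenotes and 42.9% of zygotes, and Zfp42, a pluripotency marker, in 56.2% and 44.3%. The maintenance DNA methyltransferase gene Dnmt1 was replicated in 41.7% of parthenotes and 72.9% of zygotes, the zona pellucida gene Zp1 in 62.5% and 71.4%, and Kdm5b, which encodes an H3K4 demethylase, in 66.7% and 75.7%. Orc5 and Zfp42 kept the direction that chose them, and the other 3 had the higher share in zygotes.

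After the zygote stage, more of the members than of all bins were late. Their median share was below that of all bins by 8.57 points in natural zygotes, 4.76 in 2-cell embryos, 7.27 in 4-cell embryos, 10.7 in 8-cell embryos, 17.9 in 16-cell embryos, 21.28 in morulae and 6.4 in the ICM. The members were late at 53.3% of bins in 2-cell embryos (39.9% of all bins), 57.1% in 4-cell embryos (40.1%), 58.8% in 8-cell embryos (40%), 58.6% in 16-cell embryos (39.4%), 61.1% in morulae (39.9%) and 52.6% in the ICM (39.9%). They were early at 21.4% in 2-cell embryos (39.8%), 21.1% in 4-cell embryos (40.6%), 22.8% in 8-cell embryos (39.8%), 23.5% in 16-cell embryos (39.3%), 23% in morulae (40%) and 28% in the ICM (40.5%). In 45 of 47 morula cells the members were behind the cell's score, with a median of -14.8 points over all 47. The members were spread most widely there, with a median share of 44.7% and 25th and 75th percentiles of 21.28 and 72.3%. All bins were also spread most widely in morulae (36.2 and 80.9%), so that differences in points carry this spread. The members' median rank was 0.38 in 2-cell, 0.334 in 4-cell, 0.327 in 8-cell and 0.323 in 16-cell embryos, 0.308 in morulae and 0.374 in the ICM. Bins late in both odd-numbered zygotes and odd-numbered parthenotes were late at 79.7% in 2-cell embryos, 61.7% in morulae and 76.6% in the ICM. Their median rank in morulae was 0.28. Lateness after the zygote stage was thus not particular to the members. GC content divided the members in morulae, the lowest set being replicated in a median of 19.1% of morula cells and the highest in 78.7% (all bins of those ranges 14.9% and 78.7%). Late at all 6 of these stages were 970 members (26.8%, against 18% of all bins), and early at all 6 were 279 (7.71%, against 18.8%). Of those 970, 34.1% were early in even-numbered parthenotes and 0.619% in even-numbered zygotes, against 15.7% and 0.995% of the 8341 bins late at all 6 stages. They were early in 22.4% of cases in IVF zygotes, 22.7% in maternal and 2.47% in paternal pronuclei, against 8.33%, 10.3% and 2.84%.

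Treated 2-cell embryos were compared with untreated ones to see whether the members moved when transcription or H3K4 methylation was disturbed. Collection hours were not matched between these groups, so the differences can also carry the mix of hours. α-Amanitin blocks RNA polymerase II, DRB blocks its elongation, and KDM5B removes methyl groups from H3K4. With α-amanitin the members were replicated in a median of 52.4% of cells, equal to all bins. In cells of untreated embryos it was 46%, where all bins were at 50.8%. The treated minus untreated difference was 6.35 points over members and 1.59 over all bins, and the rank was higher by 0.2 or more at 32.5% of members (19.5% of all bins) and lower by as much at 12.5% (19.4%). Members were ahead of the score in 25 of 42 α-amanitin cells and in 25 of 63 untreated cells. These values varied with the hour: all α-amanitin cells at 38 h were ahead of the score and all at 37 h behind it. Most Kdm5b cells at 34 to 36 h were behind it, and most at 37 to 40 h ahead. With DRB the difference was 8.55 points over members and 9.95 over all bins, but -0.224 points over members with the interval mean, and the rank was higher by 0.2 or more at 12% of members (11.5%) and lower at 13.9% (11.8%). With Kdm5b mRNA it was 5.95 and 4.21 points, and the rank was higher at 19.2% (12.9%) and lower at 11.5% (13.2%). Early ranks were held by 35.8% of members with α-amanitin (40.1% of all bins), 20.3% with DRB (40.8%) and 23.1% with Kdm5b mRNA (38.5%), and late ranks by 38.7% (38.6%), 55.6% (38.9%) and 47.6% (39%). The members thus stood closest to the middle of the genome's order under α-amanitin, at a median rank of 0.489, against 0.41 with Kdm5b mRNA, 0.35 with DRB and 0.38 in untreated embryos. This was not particular to the members. The bins with the reverse pattern also had a median rank of 0.489 under α-amanitin, against 0.628 in untreated embryos.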

How the data were processed

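Per the methods, the authors sequenced single cells, mapped reads to mm10 with Bowtie2 2.3.5, used SAMtools 1.9 and bedtools 2.29.0, counted reads in windows of 50 kb, scaled each bin by its mean over the cells of a stage, masked outlier windows, smoothed with a running median, segmented each chromosome and called 2 states. The deposited values are these states (1 replicated, 0 not, or missing) for 733 cells in 14 tables. Smoothing and segmentation make neighbouring bins dependent.

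The replication score was the percentage of called bins in state 1, and 714 cells with a score of 10 to 90% entered. Shares, percentile ranks (ties averaged) and differences were computed with Python 3.11.15, numpy 2.4.6 and pandas 2.3.3, and intervals are exact Clopper-Pearson intervals. Sequence and gene annotation came from GRCm38 (RefSeq and GENCODE vM21), whose chromosome lengths fit the bins. The selection was tested on simulated data. Regions named were the 10 longest runs, the 5 runs of at least 5 bins with the largest and the 5 with the smallest parthenote minus zygote difference, and the 3 with the largest maternal and paternal pronuclear difference each way; genes were those over the runs, the longest first, and those of the embryo and replication lists in members. Alternatives changed the cells, the measure, the bins and the rank limits. The members, lists and rules were chosen with earlier results of these data known. Sema3c, Sema3d, Hgf and the long neuronal genes outside the runs fall outside this rule and were singled out after their values were seen. Some genes and regions that the rule names are not reported here.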

Additional observations from a re-analysis of the deposited data

How the results depend on the processing

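The parthenote minus zygote difference over members stayed above 0 in every setting tried, at 5 points with scores of 30 to 70%, 9.56 with cells passing the authors' quality control, 9.52 as a median over runs, 16.8 with rank limits of 0.3 and 0.7 and 9.87 to 13.8 when a collection hour of either group was left out. Alternatives chosen after seeing the data gave 11.5 without chromosome 5, 9.17 relative to all bins of the same chromosome and 3.93 relative to all bins of the same GC content (bands of 1 percentage point). The maternal minus paternal difference was 1.71 with scores of 30 to 70%, 6.72 without chromosome 5 and 1.44 relative to bins of the same GC content. Pairing the 10 pronuclei numbers present in both groups, as a replicate block, gave 10 points, with the maternal pronucleus above the paternal one in 6 of 10 pairs relative to the score. Per the methods both pronuclei of a zygote were processed, but the labels do not say that a shared number marks 1 zygote, and the deviations of same-numbered pronuclei correlated at -0.0344 to 0.0837. No paired analysis was possible for the other comparisons because their numbers only name cells. The IVF minus natural zygote difference was 8.52 with the interval mean, 11 to 15.8 without single hours and 2.53 relative to bins of the same GC content.

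Differences that changed sign were those of parthenotes from IVF zygotes and from maternal pronuclei, both small, and that of DRB from untreated 2-cell embryos, which was 8.55 points. Parthenotes minus IVF zygotes gave 3.58 with the interval mean (the mean over 16 windows of the replication score), 1.1 with limits of 0.3 and 0.7, 0.439 relative to the same chromosome and 1.14 relative to the same GC content, and ranged from -2.9 to 1.282 without single hours. Parthenotes minus maternal pronuclei gave -0.455 with cells passing quality control and -0.481 with scores of 30 to 70%, and 0 to 3.31 without single hours. DRB minus untreated gave -0.224 with the interval mean. Limits of 0.3 and 0.7 left 1071 members, and with them the morula median was -36.2 points from that of all bins. Of the other values, 157 moved by less than the spread that counting cells allows, or by under 1.5 times for counts; this spread is wide, so that a drop of the parthenote minus zygote difference to 5 points lies within it. The number of cells limits single runs, with intervals such as 6.81 to 49.9% in the 17 paternal pronuclei at Ccser1. The quality table used gave no entry for paternal pronuclei and treated embryos, whose cells were all kept in that alternative, and entries for 33 of 70 ICM cells, to which the ICM was then limited.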
